A study of Mus musculus with 8 samples.

Results

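Npas4 and 9 other immediate early genes were examined in neural stem cells (NSCs) and astrocytes of S89G-DMP1 and wild type (WT) mice. Immediate early genes are switched on within minutes of a stimulus, from transcription factors already present in the cell, and many encode transcription factors themselves. Growth factors and serum induce Fos, Egr1, Junb and Ier2 in most cell types through SRF with its ELK partners and through CREB, whereas Npas4 and Arc are best known from neurons, where calcium entry induces them. The 10 genes, Npas4, Fos, Fosb, Egr1, Arc, Junb, Nr4a1, Ier2, Btg2 and Atf3, were matched by symbol to Ensembl gene ids. All 10 were found among the 47729 genes of the NSC count table and the 40562 genes of the astrocyte count table. They were chosen by their S89G-DMP1 to WT differences in these same NSC and astrocyte libraries, so the values of the 10 genes are a description. No p is given for them, and no count or fold among them is evidence of a change.

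The NSCs came from the sub-ventricular zone of 10 week old C57BL/6 mice and were grown as neurospheres in serum-free medium, with 3 S89G-DMP1 and 3 WT libraries. The astrocytes came from the cortex of C57BL/6 mice, which were 10 weeks old by the labels and 3 months old by the methods of the study, and were grown in medium with fetal bovine serum, with 1 library per genotype. S89G-DMP1 mice are a knock-in in which the serine of DMP1 that carries a chondroitin sulfate chain is replaced by glycine. They were made in C57BL/6J embryonic stem cells, and WT C57BL/6 mice served as control. No source used here says whether the 3 NSC libraries of a genotype came from separate mice or cultures, so the spread between them may be technical. Between 2354615 and 2588130 reads per NSC library and 13016924 (S89G-DMP1) and 14008670 (WT) reads per astrocyte library were counted on genes. Levels are given as CPM, read counts scaled to the library total with TMM factors. In NSCs, Dmp1 itself had 18, 21 and 16 reads in WT and 6, 3 and 5 reads in S89G-DMP1. In the astrocytes it had 2 reads in WT and 119 in S89G-DMP1, although the knock-in changes a codon and does not delete the gene.

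Markers of other cell types were summed per library, since bulk RNA cannot tell fewer cells of a type from less RNA per cell. In NSCs the 8 neural progenitor markers summed to 8365 to 8684 CPM in the WT libraries, against 8594 to 8830 CPM in the S89G-DMP1 libraries. The 12 neuron markers summed to 1197 to 1343 CPM (WT) and 1232 to 1254 CPM (S89G-DMP1), most of it Map2, and 4 of the 12 had at most 3 reads in every library. Rbfox3 had at most 4 reads in any NSC library, and Snap25 and Tubb3 had between 11 and 33. Syt1, the calcium sensor of synaptic vesicles, fell from 144, 169 and 146 reads in WT to 12, 22 and 21 in S89G-DMP1 NSCs (log2 fold change -3.00 ± 0.17, SE, adjusted p = 1.3e-23, edgeR quasi-likelihood, Benjamini-Hochberg over all tested genes). It was the only one of the 6 tested neuron markers to be called. The others had log2 fold changes of 0.48 (Snap25), 0.24 (Tubb3), 0.11 (Syp), 0.04 (Map2) and -0.18 (Gad1). The 8 astrocyte markers summed to 2105 to 2172 CPM in S89G-DMP1 NSCs, against 1518 to 1578 CPM in WT. Of the 5 tested, Slc1a3, Aldh1l1 and Mlc1 rose and Slc1a2 and S100b were not called, and Gjb6 was at 0 in all 6 libraries. The microglia markers summed to at most 0.856 CPM in any NSC library, with Cx3cr1, Csf1r, Tmem119 and Itgam at 0 in all 6, and the fibroblast and mural markers to at most 3.37 CPM, with Col1a2, Dcn and Lum at 0. The endothelial markers summed to 1.69 to 4.27 CPM (WT) and 5.56 to 10.5 CPM (S89G-DMP1), with Cdh5 and Cldn5 at 0. Flt1 was the only endothelial marker tested and was called, with 2, 6 and 4 reads in WT and 16, 12 and 13 in S89G-DMP1. It passed the filter on low counts through its S89G-DMP1 libraries alone. Pecam1, Kdr and Tek had at most 5 reads in any NSC library. The part of these cell types in the values below was not tested.

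Promoter sequences of 7 of the 10 genes, 250 bases before to 50 bases after the transcription start, were taken from RefSeq on GRCm38.p6. The 4 below are those of the 3 genes with the lowest S89G-DMP1 to WT ratios in NSCs and of Junb, whose libraries overlapped. Sequences run 5′ to 3′ on the strand of the gene, and capitals mark matches to the motifs searched on both strands.
Npas4 promoter, chr19:4989922-4990221, reverse strand: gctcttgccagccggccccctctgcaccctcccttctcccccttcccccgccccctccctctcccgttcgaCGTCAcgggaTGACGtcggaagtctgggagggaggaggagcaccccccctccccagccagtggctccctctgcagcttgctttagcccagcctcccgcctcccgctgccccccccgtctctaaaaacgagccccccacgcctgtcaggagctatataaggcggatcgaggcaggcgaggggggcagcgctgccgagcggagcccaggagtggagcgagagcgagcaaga
Fos promoter, chr12:85473640-85473939, forward strand: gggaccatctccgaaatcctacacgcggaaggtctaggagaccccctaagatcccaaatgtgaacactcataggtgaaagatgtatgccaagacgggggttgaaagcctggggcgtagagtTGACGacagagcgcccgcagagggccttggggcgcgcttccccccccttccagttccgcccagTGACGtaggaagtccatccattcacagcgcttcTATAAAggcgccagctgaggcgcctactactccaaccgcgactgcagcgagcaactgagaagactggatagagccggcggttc
Fosb promoter, chr7:19309996-19310295, reverse strand: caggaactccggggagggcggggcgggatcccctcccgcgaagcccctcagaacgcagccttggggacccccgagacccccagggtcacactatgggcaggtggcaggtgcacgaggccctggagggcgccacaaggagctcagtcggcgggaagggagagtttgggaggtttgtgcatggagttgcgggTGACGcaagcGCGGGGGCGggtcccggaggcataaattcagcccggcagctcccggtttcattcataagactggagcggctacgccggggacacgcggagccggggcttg
Junb promoter, chr8:84978699-84978998, reverse strand: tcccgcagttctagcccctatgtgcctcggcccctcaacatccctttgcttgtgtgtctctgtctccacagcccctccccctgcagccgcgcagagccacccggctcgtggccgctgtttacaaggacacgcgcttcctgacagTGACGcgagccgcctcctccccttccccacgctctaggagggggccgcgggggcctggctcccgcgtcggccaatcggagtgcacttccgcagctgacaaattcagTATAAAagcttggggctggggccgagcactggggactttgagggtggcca
The motifs were the full cAMP response element (CRE) TGACGTCA, the site of CREB and ATF factors, its core TGACG, of which a full CRE holds 2 overlapping copies, the EGR site GCGNGGGCG, the AP-1 site TGANTCA, the TATA box TATAAA, and the CArG box, the site of SRF. The CRE core was present in all 7 windows, 13 times in all, and in 20.8% of all 32851 windows of the same length. In the Npas4 window 1 core lay on each strand, from -179 to -175 and from -169 to -165. In the Fos window cores lay from -129 to -125 and from -66 to -62, upstream of a TATA box from -33 to -28. The full CRE was found only in the Btg2 window, from -166 to -159, and in 1.79% of all windows. The EGR site occurred in 3 of the 7 windows (Fosb, Nr4a1 and Btg2) and in 5.55% of all windows. The TATA box occurred in the Fos and Junb windows and in 13.6% of all windows. Neither the CArG box (1.63% of all windows) nor the AP-1 site (7.81%) was found in the 7 windows. This says only that these letters are not within the 250 bases before and 50 bases after the start.

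**Figure D1:**
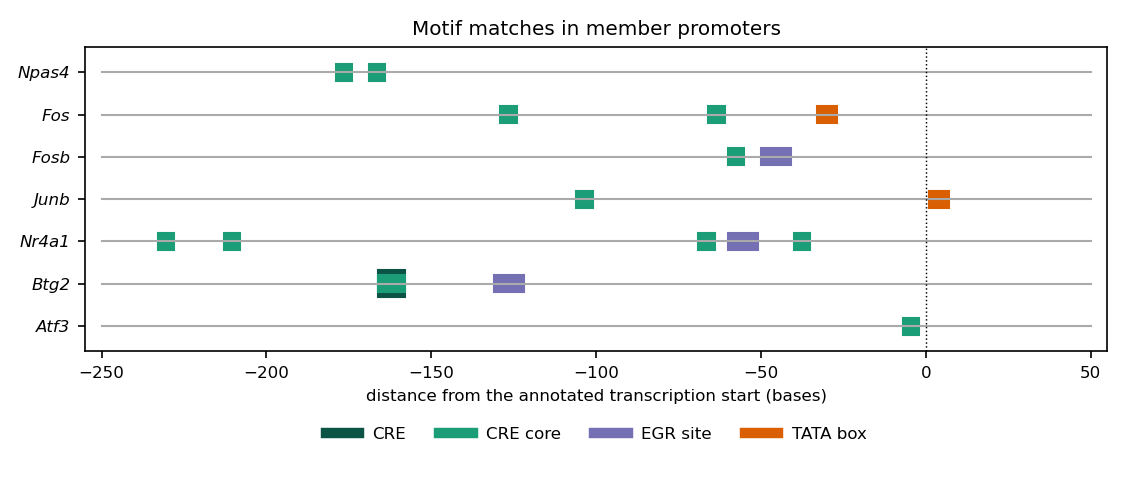
Positions of motif matches in the promoter windows of 7 immediate early genes, with distance from the annotated transcription start in bases on the x axis and 1 line per gene. Each window held at least 1 CRE core (light green), from 1 in Fosb, Junb and Atf3 to 4 in Nr4a1, and the full CRE (dark green) of Btg2 holds both of its cores.

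Npas4 encodes a bHLH-PAS transcription factor that pairs with ARNT proteins, chiefly ARNT2 in brain. The gene lies on chromosome 19 from 4984355 to 4990316 on the reverse strand of GRCm38. In NSCs it had 26, 12 and 14 reads in the 3 WT libraries and 0, 4 and 4 reads in the 3 S89G-DMP1 libraries. All S89G-DMP1 libraries lay below all WT libraries, and the WT library with 26 reads stood above the other 2. WT libraries averaged 7.07 ± 3.40 CPM and S89G-DMP1 libraries 1.11 ± 0.959 CPM (SD, n = 3 each), where the count of 0 in replicate 1 allows a level of up to 1.26 CPM. The log2 fold change was -2.60 ± 0.48 (SE). The reads summed over libraries gave a ratio of 0.159, with a 95% exact interval of 0.0653 to 0.337 that covers counting error only. Npas4 passed the filter on low counts through its WT libraries alone.

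The FOS proteins, FOS and FOSB, pair with JUN proteins to form AP-1. Fos (chromosome 12, 85473890 to 85477273, forward strand) had 84, 101 and 102 reads in the WT NSC libraries and 64, 56 and 51 in the S89G-DMP1 libraries. The groups did not overlap. The WT mean was 38.5 ± 2.75 CPM, the S89G-DMP1 mean 23.8 ± 3.25 CPM (SD, n = 3 each), and the log2 fold change was -0.70 ± 0.14 (SE). Fosb (chromosome 7, 19302696 to 19310051, reverse strand) was near the limit of detection, with 6, 5 and 6 reads in WT and 3, 0 and 1 in S89G-DMP1. Its groups did not overlap either, but it did not pass the filter and was not tested. Summed over libraries, its ratio was 0.243, with a 95% exact interval of 0.0596 to 0.746 for counting error.

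Egr1, a zinc finger factor of the growth factor and serum response, was the most abundant of the 10 genes in NSCs. It lies on chromosome 18 from 34859823 to 34864984 on the forward strand. It had 741, 812 and 833 reads in the WT libraries and 688, 680 and 670 in the S89G-DMP1 libraries, which is 320 ± 11.0 CPM against 283 ± 12.5 CPM (SD, n = 3 each). The groups did not overlap, but the difference was small, with a log2 fold change of -0.18 ± 0.06 (SE).

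The other 6 genes overlapped between genotypes. Arc (chromosome 15, 74669083 to 74672570), whose protein forms capsids and acts at the postsynaptic density, had 73, 83 and 94 reads in WT NSCs and 82, 81 and 97 in S89G-DMP1 NSCs, with a log2 fold change of 0.10 ± 0.13 (SE). Of the 2 genes best known from neurons, Npas4 was thus lower in every S89G-DMP1 library and Arc was not. Junb (chromosome 8, 84974484 to 84978718), an AP-1 subunit whose annotated span overlaps Prdx2 on the other strand, had 39, 49 and 37 reads in WT and 41, 41 and 45 in S89G-DMP1 (0.07 ± 0.18). Ier2 (chromosome 8, 84661331 to 84662852) had 80, 94 and 88 reads in WT and 81, 79 and 85 in S89G-DMP1 (-0.05 ± 0.13). These 3 genes gave values close to 0 with standard errors of 0.13 to 0.18.

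Nr4a1 (chromosome 15, 101254269 to 101274795), an orphan nuclear receptor, had 71, 66 and 58 reads in WT and 57, 53 and 51 in S89G-DMP1 NSCs, with a log2 fold change of -0.23 ± 0.16 (SE). Its highest S89G-DMP1 library lay between the WT libraries in CPM. Btg2 (chromosome 1, 134075170 to 134079120), an anti-proliferative gene expressed in dividing neural progenitors, had 123, 153 and 162 reads in WT and 107, 101 and 145 in S89G-DMP1 (-0.26 ± 0.11). The S89G-DMP1 library with 145 reads lay within the range of WT. Atf3 (chromosome 1, 191170296 to 191218039), a stress-induced bZIP factor, had 3, 4 and 2 reads in WT and 5, 3 and 8 in S89G-DMP1 and was not tested, with a ratio of summed reads of 1.84 (95% exact interval for counting error 0.765 to 4.72).

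**Figure D2:**
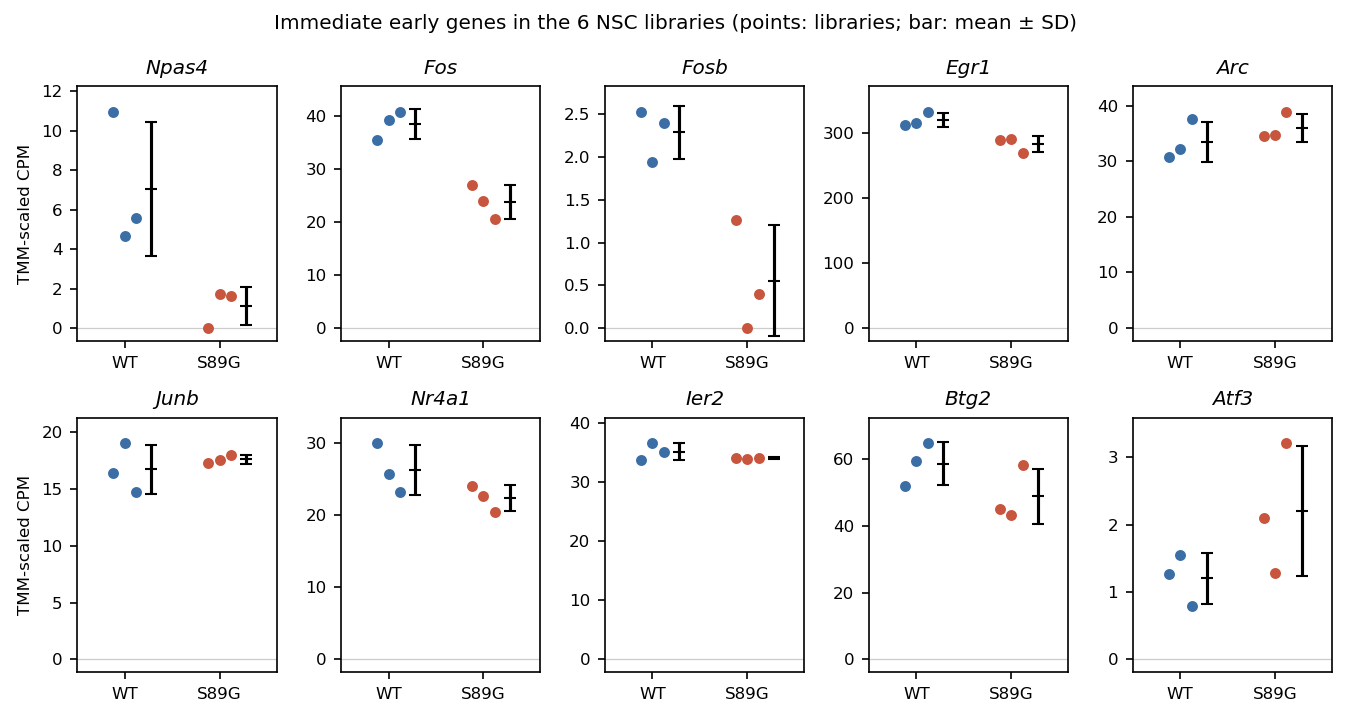
TMM-scaled CPM of the 10 immediate early genes in each of the 3 WT (blue) and 3 S89G-DMP1 (red) NSC libraries, on linear axes, with the mean and SD of each group in black. The groups stand apart for Npas4, Fos, Fosb and Egr1 and overlap for the other 6 genes.

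All S89G-DMP1 NSC libraries lay below all WT libraries for 4 of the 10 genes, and for 3 of the 8 that passed the filter on low counts. The same held for 16.0% of all 11194 genes that passed. In the edgeR fit over those genes, 3 of the 8 (Npas4, Fos and Egr1) were past the threshold as lower, as were 8.76% of all genes. None of the 8 was past it as higher, also at an unadjusted p under 0.05 and with DESeq2, as were 7.08% of all genes by edgeR. The 10 genes were chosen by this difference and Npas4 passed the filter through WT alone, so these counts restate the choice and nothing is read from them. The place of Egr1 among the 3 depended on single libraries and on the tool, since it was not past the threshold with DESeq2, nor without S89G-DMP1 replicate 2 or 3 or WT replicate 3. Btg2 was past it without S89G-DMP1 replicate 3 or WT replicate 1.

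To compare levels between genes, CPM was divided by the gene length in kb that the deposited astrocyte FPKM values imply. In WT NSCs, Egr1 was highest at 85.1 ± 2.92 CPM per kb (SD, n = 3), followed by Fos at 35.2 ± 2.52, Ier2 at 23.1 ± 0.921 and Btg2 at 21.4 ± 2.36 CPM per kb. Ier2 and Btg2 overlapped between libraries. Arc, Nr4a1 and Junb, at 11.0 ± 1.17, 10.6 ± 1.38 and 9.10 ± 1.17 CPM per kb, formed a run in which each overlapped the next, while Arc stood apart from Btg2 and Junb from Npas4. Npas4 followed at 2.16 ± 1.04 CPM per kb, and Atf3 (0.821 ± 0.259) and Fosb (0.610 ± 0.0820) overlapped at the bottom. In S89G-DMP1 NSCs, Fos at 21.8 ± 2.98 CPM per kb overlapped Ier2 and Btg2. By deposited TPM, Fos at 30.79, 29.25 and 25.29 lay below Ier2 in each S89G-DMP1 library. Npas4 at 0.337 ± 0.293 CPM per kb lay below Atf3 and overlapped Fosb, the last of the 10.

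Tested genes with a pattern like that of Npas4 and Fos over the 6 NSC libraries were ranked by the root mean square difference in centred log2 CPM. Npas4 and Fos were chosen by their difference in these same libraries, so the ranking is a description and nothing is read from it. Closest to Npas4 were Clic5 (0.557), Kcnk3 (0.568) and Map3k7cl (0.586). Clic5 had 434, 473 and 440 reads in WT and 106, 137 and 145 in S89G-DMP1, so its libraries spread less than those of Npas4. Kcnk3 had 13, 12 and 18 reads in WT and 2, 4 and 5 in S89G-DMP1. Map3k7cl had 14, 13 and 13 reads in WT and 2, 3 and 2 in S89G-DMP1. Like Npas4, Kcnk3 and Map3k7cl passed the filter on low counts through WT alone. Closest to Fos were Hlx (0.0274), Hspg2 (0.0469) and Ptprm (0.0481). Hspg2, which encodes the basement membrane proteoglycan perlecan, had 256, 316 and 308 reads in WT and 212, 176 and 169 in S89G-DMP1.

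A list of 48 other immediate early and rapid response genes gave the wider picture. Of these, 39 were tested in NSCs, and 6 fell and 3 rose in S89G-DMP1 at an adjusted p under 0.05 over all genes, where 8.76% of all tested genes fell and 7.08% rose. The median log2 fold change of the 39 was -0.14, and that of all tested genes was 0.00. Gadd45g, a stress-inducible growth arrest gene of neural precursors, fell from 248, 244 and 232 reads to 133, 122 and 116 (log2 fold change -0.92 ± 0.10, SE, adjusted p = 1.6e-11, edgeR). Plk2, a kinase induced by growth factors and synaptic activity, fell from 904, 995 and 878 reads to 683, 663 and 840 (-0.30 ± 0.06, adjusted p = 1.7e-04, edgeR). Klf10, a TGF-beta inducible zinc finger gene, rose from 416, 418 and 413 reads to 490, 513 and 530 (0.35 ± 0.07, adjusted p = 5.4e-05, edgeR). In each of these genes no S89G-DMP1 library lay within the range of WT in CPM, and each was called by DESeq2 and in all 6 fits that left out 1 library.

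The remaining calls on this list rested on fewer reads or smaller differences, and DESeq2 made none of them. Fosl2, another AP-1 subunit, fell from 96, 87 and 103 reads to 72, 71 and 54 (-0.49 ± 0.14, SE), and Zfp36l1, an mRNA decay factor, from 123, 143 and 164 to 111, 94 and 99 (-0.45 ± 0.11). Fosl2 lost its call without S89G-DMP1 replicate 3 or WT replicate 3, and Zfp36l1 without WT replicate 3. Ccn1, also named Cyr61, a secreted matrix protein, had a log2 fold change of -0.90 ± 0.30 (SE) and Nfil3, a bZIP repressor, of -0.57 ± 0.20. Each lost its call in 4 of the 6 fits, without S89G-DMP1 replicate 1 or 2 or WT replicate 2 or 3. Ifrd1 rose with a log2 fold change of 0.34 ± 0.10 and lost its call without S89G-DMP1 replicate 1 or 2 or WT replicate 3. Egr4, a paralogue of Egr1, rose from 14, 9 and 14 reads to 21, 21 and 22 (0.83 ± 0.29, SE) and kept its call only without WT replicate 1. It passed the filter on low counts through its S89G-DMP1 libraries, since WT alone would not have passed. It was not called when at least 10 reads were required in every library. The AP-1 genes Jun, Jund and Fosl1 and the EGR genes Egr2 and Egr3 were not called. Jun had 671, 867 and 808 reads in WT and 728, 727 and 775 in S89G-DMP1.

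A second list held 29 genes that act upstream of immediate early genes or partner their products. All 29 were tested, 12 fell and 1 rose, against 8.76% and 7.08% of all tested genes, and the median log2 fold change was -0.12. Arnt2, the partner of NPAS4, fell from 945, 1028 and 1061 reads in WT to 764, 773 and 732 in S89G-DMP1 (-0.37 ± 0.06, SE, adjusted p = 1.0e-06, edgeR), while Arnt had a log2 fold change of 0.11 ± 0.11. Mef2c, a MADS box factor of activity-dependent transcription, fell from 166, 169 and 164 reads to 121, 89 and 106 (-0.61 ± 0.11, adjusted p = 1.9e-05, edgeR). Hdac5 and Hdac4, class IIa deacetylases that bind MEF2 proteins, fell as well. Hdac5 went from 740, 910 and 838 reads to 467, 471 and 505 (-0.74 ± 0.06, adjusted p = 2.6e-15, edgeR) and Hdac4 had a log2 fold change of -0.44 ± 0.10 (SE). Among the cofactors of SRF, Elk3 (-0.46 ± 0.07) and Mrtfb (-0.34 ± 0.08) fell, Elk4 rose (0.30 ± 0.09), and Srf itself had 121, 141 and 146 reads in WT and 120, 137 and 135 in S89G-DMP1 and was not called.

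Kinases and CREB family members of the list were split. The ribosomal S6 kinases Rps6ka2 (-0.53 ± 0.13, SE) and Rps6ka5 (-0.53 ± 0.17), which act below ERK, fell, and so did the CREB family member Crem (-0.52 ± 0.18). Creb1 was not called (0.09 ± 0.08). The remaining 3 calls were the decreases of Mef2a, Mef2d and Mapk3, which encodes the kinase ERK1. Hdac5, Mef2c, Elk3, Hdac4, Arnt2 and Mrtfb, which made up the 6 DESeq2 calls, were called in all 6 fits that left out 1 library. The other 7 each lost the call in 1 to 4 of these fits, with Rps6ka2 lost without S89G-DMP1 replicate 1, Rps6ka5 without S89G-DMP1 replicate 2 or WT replicate 1, Elk4 without S89G-DMP1 replicate 1 or WT replicate 3, and Crem without S89G-DMP1 replicate 1 or 2 or WT replicate 1 or 3. Mef2a lost it without S89G-DMP1 replicate 3 or WT replicate 1, Mef2d without S89G-DMP1 replicate 1 or 2 or WT replicate 3, and Mapk3 without S89G-DMP1 replicate 2 or 3 or WT replicate 2.

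**Figure D3:**
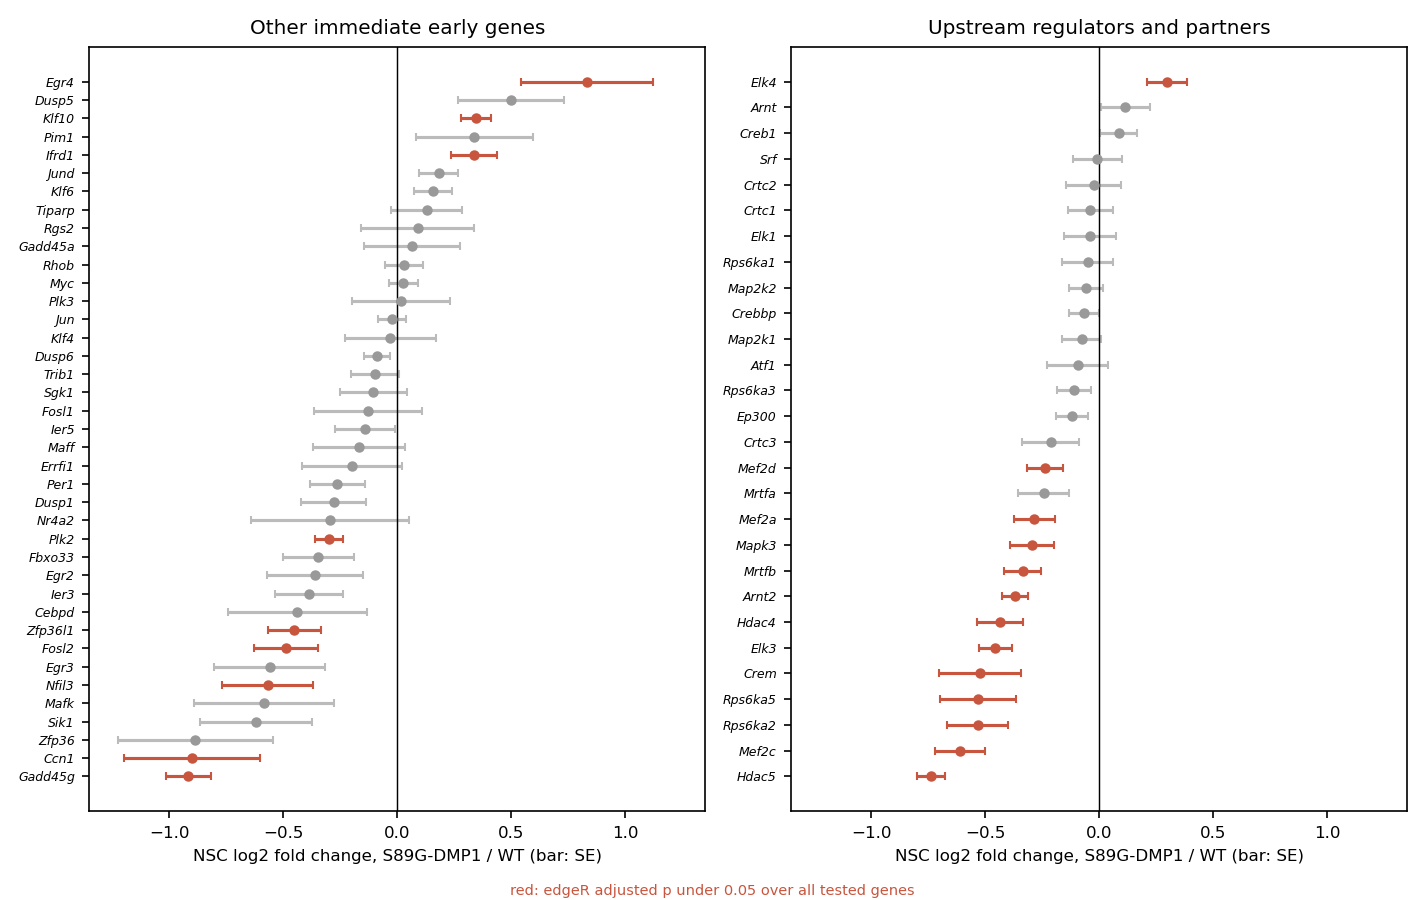
NSC log2 fold change, S89G-DMP1 over WT, with its standard error, for the 39 tested genes of the other immediate early genes (left) and all but 1 of the 29 upstream regulators and partners (right), ordered by value. Red marks genes past an adjusted p of 0.05 over all tested genes, 6 lower and 3 higher on the left and 12 lower and 1 higher on the right.

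In the astrocytes, where 1 library per genotype leaves every difference without a replicate check, the values of the 10 genes went both ways. Npas4 had 19 reads (WT) and 68 reads (S89G-DMP1), a log2 ratio of 1.56 (ratio 3.15, 95% exact interval for counting error 1.87 to 5.54). Arc had 20 and 120 reads, a log2 ratio of 2.30 (ratio 5.28, interval 3.27 to 8.95). These 2 were at least 2-fold higher in the S89G-DMP1 library, as were 17.3% of the 15680 genes with at least 10 reads in either library. None of the 10 was at least 2-fold lower, as were 12.8% of those genes.

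With TMM factors, Egr1, Nr4a1, Btg2, Ier2 and Atf3 were higher in the S89G-DMP1 astrocyte library by less than 2-fold. Egr1 had 2929 reads in WT and 5210 in S89G-DMP1 (log2 ratio 0.65), Nr4a1 262 and 494 (0.73), Btg2 958 and 1535 (0.49), Ier2 482 and 737 (0.43) and Atf3 123 and 167 (0.25). The interval of Atf3 included a ratio of 1. The values of 3 AP-1 genes lay below WT. Junb had 1988 reads in WT and 1463 in S89G-DMP1 (-0.63), Fosb 71 and 44 (-0.85), and Fos 1049 and 1027 (-0.22). The sign of Fos depended on the scale, with a log2 ratio of 0.08 when counts were scaled by library size alone, which moved the median of all 15680 genes from 0.01 to 0.30. The other 9 genes kept their sign. Jun, an AP-1 gene of the list of other immediate early genes that is named here after its value was seen, went the other way, with 768 reads in WT and 2089 in S89G-DMP1 (1.26).

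**Figure D4:**
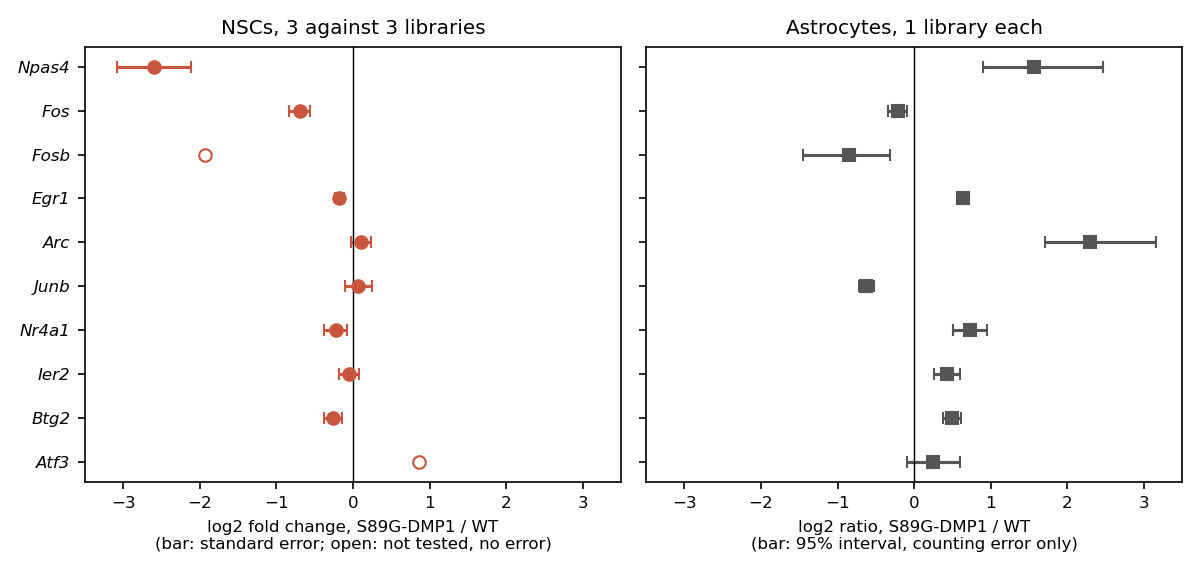
Log2 ratio of S89G-DMP1 to WT for the 10 immediate early genes in NSCs (left, bars are standard errors, open circles are the untested Fosb and Atf3 without an error) and in astrocytes (right, bars are 95% intervals for counting error only). Npas4 is at -2.60 in NSCs and at 1.56 in astrocytes, and Fosb is below 0 in each.

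The astrocyte libraries differed widely in cell type markers. The 8 astrocyte markers summed to 21.4 CPM (WT) and 949 CPM (S89G-DMP1). In the WT library Gfap had 90 reads, Slc1a3 8 and Aqp4 8, against 901, 3877 and 4051 in the S89G-DMP1 library, so that the WT library held little of the markers that define its label. S100b went the other way, with 64 reads in WT and 30 in S89G-DMP1. The neuron markers summed to 99.4 and 303 CPM, with Syt1 at 3 and 69 reads and Rbfox3 at 2 and 1. The microglia markers summed to 421 and 620 CPM, the endothelial markers to 193 and 70.9 CPM, with Cldn5 at 0 in each library, and the fibroblast and mural markers to 5564 and 4474 CPM. Of the 7 fibroblast and mural markers, 5 lay 2-fold or more below WT and 1 that far above, against 12.8% and 17.3% of all genes counted. Pdgfrb was at 929 CPM (WT) and 158 CPM (S89G-DMP1), and Acta2 at 723 and 2468 CPM. The oligodendrocyte markers summed to 46.2 and 85.3 CPM and the progenitor markers to 3517 and 6253 CPM. The part of these cell types in the astrocyte values was not tested.

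Across the 47 other immediate early genes with at least 10 reads, 14 lay 2-fold or more below WT in the S89G-DMP1 astrocyte library, and 7 lay that far above, against 12.8% and 17.3% of all genes counted. The median log2 ratio was -0.27, or 0.02 by library size alone, where that of all genes counted was 0.01, or 0.30 by library size alone. The prostaglandin synthase gene Ptgs2 had 8404 reads in WT and 410 in S89G-DMP1 (log2 ratio -4.54). The small MAF factor Maff (-2.52), the matrix protein gene Ccn2, also named Ctgf (-2.31), Cebpb (-2.23), Sgk1 (-2.21), the AP-1 gene Fosl1 (-2.21), Nr4a2 (-1.89) and Klf4 (-1.75) were lower too. Of the 29 upstream regulators, 3 lay 2-fold or more above WT and 1 that far below, which became 4 and 0 by library size alone. With TMM factors, the shares of all genes counted were 17.3% above and 12.8% below. By library size alone, 3487 of the 15680 genes lay that far above and 1515 that far below. Rps6ka5 had a log2 ratio of 1.72, Rps6ka1 of 1.28, Rps6ka3 of 1.01 and Mef2a of -1.06. Arnt2 had 2669 and 2909 reads, with a log2 ratio of -0.06.

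Per kb, the 10 genes had another order in astrocytes than in NSCs. In the WT astrocyte library, Junb was at 85.3, Fos at 75.9 and Egr1 at 61.5 CPM per kb, and Arc at 0.517 and Npas4 at 0.458 CPM per kb were the lowest. In NSCs, Junb was at 9.10 ± 1.17 CPM per kb in WT and 9.58 ± 0.215 in S89G-DMP1, and Arc at 11.0 ± 1.17 and 11.8 ± 0.814 (SD, n = 3). Atf3, at 6.61 CPM per kb in WT astrocytes, was at 0.821 ± 0.259 in WT NSCs (SD, n = 3). These tables were made with different aligners and scaled separately, and the cells were grown with and without serum, so cell type, medium and pipeline cannot be told apart and no test was made.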

How the data were processed

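RNA was sequenced from 3 WT and 3 S89G-DMP1 NSC libraries and from 1 astrocyte library per genotype. The authors deposited read counts per gene for each cell type, with FPKM values for astrocytes and TPM values for NSCs. Per the labels, astrocyte reads were aligned with TopHat2 2.0.9 (Bowtie2 2.0.6), and HISAT2, StringTie and featureCounts were used for NSCs on GRCm38. The astrocyte genome build and whether strand was used in counting are not given in the sources used here. Counts were used throughout, because some deposited NSC TPM values went against them: Btg2 was listed at 6.09 TPM with 145 reads in S89G-DMP1 replicate 3 and at 40.5 TPM with 101 reads in replicate 2.

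Low NSC counts were removed by filterByExpr, TMM factors were applied, and genotypes were compared with the edgeR 4.0.16 quasi-likelihood test (R 4.3.3) without covariates. Calls were made at 0.05 after Benjamini-Hochberg adjustment over all tested genes. Astrocyte ratios used CPM after TMM, a prior count of 2 and at least 10 reads in either library, without a test. Intervals are exact (Clopper-Pearson on the split of reads, 95%) and, like limits for a count of 0 (3 counts), cover counting error only. DESeq2 1.42.0, RLE factors, library size alone, other filters, the replicate number as a block, each library left out and FPKM were alternatives. The genes and lists were chosen with earlier results of these data known. All 10 genes were named, with every called gene of the other lists, at most 10 each by size in NSCs with the rest listed, and at most 8 by size with at least 50 reads in astrocytes. Of the 29 upstream regulators, 1 uncalled gene is counted but not reported here. Positions are from GENCODE M21, promoters from RefSeq.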

Additional observations from a re-analysis of the deposited data

Results flagged for a closer look

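Npas4 and Egr1 had opposite signs in the cell types. In NSCs every S89G-DMP1 library lay below every WT library (log2 fold change -2.60 for Npas4 and -0.18 for Egr1), whereas the S89G-DMP1 astrocyte library lay above the WT library (log2 ratio 1.56 and 0.65). Nr4a1, Btg2, Ier2 and Junb also had opposite signs, at -0.23, -0.26, -0.05 and 0.07 in NSCs and 0.73, 0.49, 0.43 and -0.63 in astrocytes, but their NSC libraries overlapped between genotypes. The difference between cell types was not tested, since each astrocyte genotype has 1 library. The astrocyte markers summed to 21.4 CPM (WT) and 949 CPM (S89G-DMP1) in the 2 astrocyte libraries, and their part in these values was not tested.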

How the results depend on the processing

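DESeq2 called 503 genes lower and 348 higher in NSCs, where edgeR called 981 and 792, and all 851 were among the edgeR calls. On the list of other immediate early genes DESeq2 called 2 lower and 1 higher, and on the upstream regulators 6 lower and 0 higher. With 1 NSC library left out at a time, 770 to 926 genes were called lower and 571 to 733 higher. Among the 10 genes, which were chosen by this difference, 2 to 4 were called lower, on the list of other immediate early genes 4 to 6 lower and 1 to 3 higher with a median log2 fold change of -0.24 to -0.12, and on the regulators 8 to 11 lower and 0 to 1 higher. Npas4 left the test when at least 10 reads were required in every library. Deviations from the group mean correlated by 0.03, -0.01 and -0.02 between libraries of the same number, and by -0.02 to 0.03 between libraries of different numbers. No pairing by replicate number was seen, though counting error at this depth could hide it. With the replicate block the test called 3 of the 10 genes lower, as without it. In astrocytes a threshold of 1.5-fold gave 4 of the 10 genes higher and 2 lower, and log2(FPKM + 1) gave 1 higher, with Npas4 at 0.88. Library size alone and log2(FPKM + 0.1) each gave 3 at least 2-fold higher, with Nr4a1 at up to 1.02. By library size alone, 3487 of all 15680 genes were that far above WT. Fos turned positive at 0.075 by library size alone and with log2(FPKM + 0.1) and at 0.074 with log2(FPKM + 1). Of the regulators, 0 were at least 2-fold lower by library size alone and with log2(FPKM + 1) or log2(FPKM + 0.1), and 3 were lower at 1.5-fold. Depth limits Npas4, Fosb and Atf3 in NSCs.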

Other observations

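Of 10 genes of the later, activity-dependent response, 3 were tested in NSCs, and 1 fell and 0 rose, where 8.76% of all tested genes fell and 7.08% rose. Nrn1, a neurotrophic cell surface protein gene, fell from 195, 225 and 194 reads in WT to 150, 152 and 163 in S89G-DMP1 (log2 fold change -0.35 ± 0.09, SE, adjusted p = 0.0047, edgeR's quasi-likelihood test), although DESeq2 did not call it. Homer1 and Nptx2 were not called, and Bdnf had 7, 9 and 11 reads in WT and 6, 9 and 11 in S89G-DMP1. In the astrocytes, 9 of the 10 had at least 10 reads in either library. Of these, 4 lay 2-fold or more below WT in the S89G-DMP1 library and 1 that far above, against 12.8% and 17.3% of all genes counted. Bdnf had 2296 reads in WT and 233 in S89G-DMP1, and Scg2, a secretory granule protein gene, 81 and 689. Both were named after their values were seen.

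Of 8 heat shock genes, 5 were tested in NSCs, and 0 fell and 1 rose, where 8.76% of all tested genes fell and 7.08% rose. The called gene was Hspd1, a mitochondrial chaperonin gene, with a log2 fold change of 0.35 ± 0.05 (SE, adjusted p = 1.4e-06, edgeR's quasi-likelihood test). The stress-inducible Hspa1a had at most 1 read and Hspa1b at most 3 reads in any NSC library. In the astrocytes, 3 of the 8 genes lay 2-fold or more below WT in the S89G-DMP1 library and 0 that far above. The shares of all genes counted were 12.8% below and 17.3% above.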
